A study of Caenorhabditis elegans with 4 samples.

Results

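RNA that matches transposon and repeat sequences was examined in adult C. elegans. A row does not tell an element's own transcript from a copy within another transcript. The rows of the deposited table used here each stand for a consensus sequence of a transposon or repeat family. These rows were chosen as those whose identifier is not a WormBase gene number and whose biotype is empty, and there were 181 of them among 47115 rows in all. Reads of different copies can fall on the same row, and some families have several rows, so that no value belongs to 1 place in the genome. The tested animals were an eggd-1 null mutant, labelled only eggd-1, which lacks a LOTUS domain protein that anchors germ granules beside the nuclei of germ cells. The reference animals carried pgl-1::RFP, a red fluorescent tag on a core germ granule protein, and whether the mutant carried the same tag is not given in its label. Both groups were synchronized as L1 larvae, grown on OP50 bacteria at 20 °C and taken whole as adults, with 2 libraries a group. The labels call these sequencing replicates and the study calls them biological replicates, so the p-values measure the spread between these libraries. In whole animals a change in the number of germ cells and a change in RNA per cell cannot be told apart.

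DNA transposons such as the Tc and mariner elements encode a transposase and move by excision and reinsertion, whereas Helitrons are copied by a rolling circle. Retrotransposons move through an RNA copy. The LTR group, named Cer in the worm, is framed by long terminal repeats, and the non-LTR group (LINE-like elements and the SINEs that borrow their enzymes) is not. In the worm germ line these elements are held silent by small RNAs: PRG-1 with its piRNAs and double-stranded RNA start the response, the Mutator complex and RNA-dependent RNA polymerases amplify it as 22G RNAs, and Argonautes such as HRDE-1 carry it into the nucleus. Much of that machinery sits in germ granules.

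Most families were measured at low levels, and no row was called with a change of 4-fold or more. Of the 181 rows, 8 had a count of 0 in all 4 libraries, 173 had a count, and 149 received an adjusted p. The 24 counted rows without one had at most 4.14 normalized counts on average (counts divided by the DESeq2 size factor of the library). A mean of at least 10 was reached by 131 rows and a mean of at least 100 by 63. Consensus lengths were not used here, so levels are compared between libraries and not between families. A row with a count of 0 in a library allows up to 3 counts there.

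The libraries held 18707358 and 17603513 counts in eggd-1 and 20223368 and 30812591 in the control. The mutated gene, listed as mip-1, had 6 and 3 counts in eggd-1 and 2074 and 3177 in the control, in the direction of the labels. Transposon rows took 0.204% (95% Wilson interval 0.202% to 0.206%) and 0.211% (0.209% to 0.213%) of all counts in the eggd-1 libraries, and 0.275% (0.272% to 0.277%) and 0.241% (0.239% to 0.242%) in the control libraries. Only counting error is covered by these intervals and by that limit. Both eggd-1 shares lay below both control shares, and the log2 ratio of the mean shares was -0.31 with a spread of 0.0986 between replicates (pooled SD). With 2 libraries against 2, an exact permutation test cannot give a p below 0.333. Ribosomal RNA took 0.437% and 0.536% of counts in eggd-1 and 1.44% and 0.726% in the control. Leaving it out of the totals gave a log2 ratio of -0.32.

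**Figure D1:**
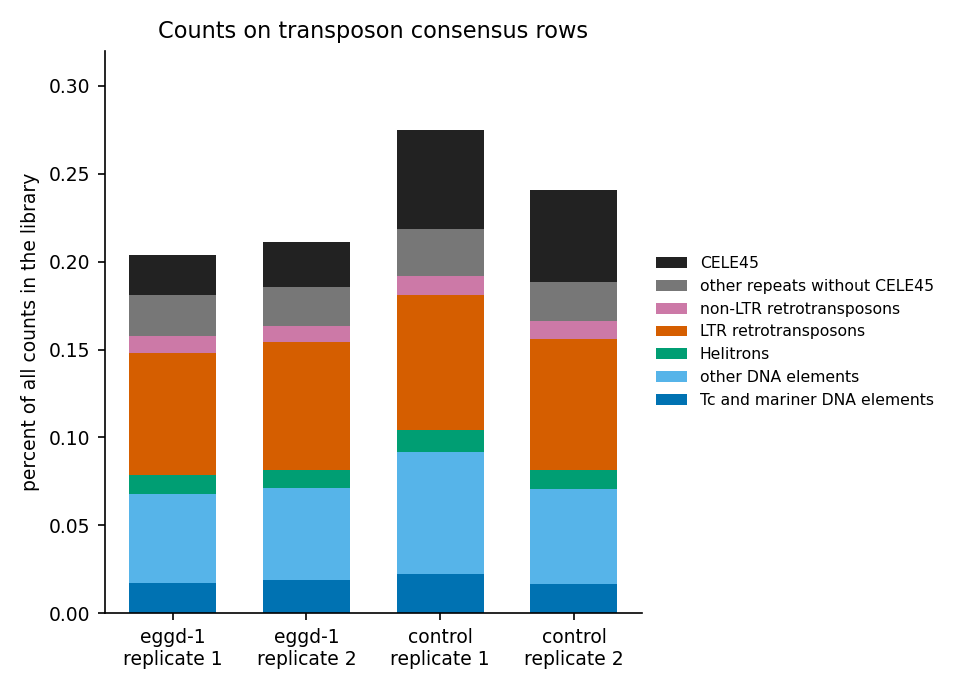
Percent of all counts in each library that fell on transposon consensus rows, stacked by element class, with the row CELE45 shown apart. The eggd-1 bars reach 0.204% and 0.211% and the control bars 0.275% and 0.241%, and the CELE45 segment is 0.0230% and 0.0258% in eggd-1 against 0.0558% and 0.0524% in the control.

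2 rows held a large part of this signal. CELE45, a repeat whose name gives no class, made up 11.3% and 12.2% of the transposon counts in eggd-1, against 20.3% and 21.8% in the control. CER1, an LTR retrotransposon known to make virus-like particles in the gonad, made up 20.3% and 21.7% in eggd-1 and 18.4% and 18.4% in the control. Without both rows, a choice made after the data had been seen, the shares of all counts were 0.1396% and 0.1398% in eggd-1 and 0.168% and 0.144% in the control. The log2 ratio was then -0.16, so that much of the lower total rested on these rows, and mainly on CELE45. Its mean normalized count was 5152 in eggd-1 and 11484 in the control, whereas that of CER1 was 9211 and 10057.

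Among the tested rows, 6 were higher and 17 were lower in eggd-1 (DESeq2, Benjamini-Hochberg adjusted p under 0.05). The 6 higher rows were 4.03% of the 149, where 18.6% of all 16773 rows tested were higher, and the 17 lower rows were 11.4%, where 20.4% of all rows were lower. Both shares of transposon rows thus lay below those of the whole table. Rows with small counts seldom pass the test, and the counts were therefore repeated at a mean of at least 100, where 3 of 63 transposon rows (4.76%) were higher against 18.9% of all such rows and 14 (22.2%) were lower against 31.6%. Another 68 tested rows had a mean between 10 and 100, with 3 higher and 3 lower. The 18 rows under 10 gave no call by DESeq2, nor any at an unadjusted p under 0.05. Its filter for low counts removed rows such as CELE11 and CELE6 before the edgeR test, so edgeR could not call them. At 4-fold or more, 0 rows were higher and 0 were lower by DESeq2, against 5.67% and 0.763% of all rows. The same count of 0 was found by edgeR, by limma voom and at an unadjusted p under 0.05. Of the 23 called rows, 6 differed by at least 2-fold.

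The direction was mostly downward but small. The median log2 fold change over the 131 rows with a mean of at least 10 was -0.20 (spread between replicates 0.0862), beside -0.01 over the 15192 rows of the table at that level. Among the 131 rows, 91 had a negative and 40 a positive log2 fold change, the quartiles were -0.50 and 0.09, and 120 were within 2-fold. Both eggd-1 libraries lay below both control libraries in 69 of the 149 tested rows (46.3%), against 38.9% of all rows, and above both in 26 (17.4%), against 38.5%. The control libraries themselves differed on these rows. Control replicate 1 was above control replicate 2 in 94 of the 131 rows, by a median of 0.14 on the log2 scale, whereas over 15061 gene rows that median was 0.01. The eggd-1 libraries differed by a median of -0.08, with replicate 1 above replicate 2 in 53 rows. With control replicate 1 left out the overall median was -0.14, and with control replicate 2 left out it was -0.32.

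**Figure D2:**
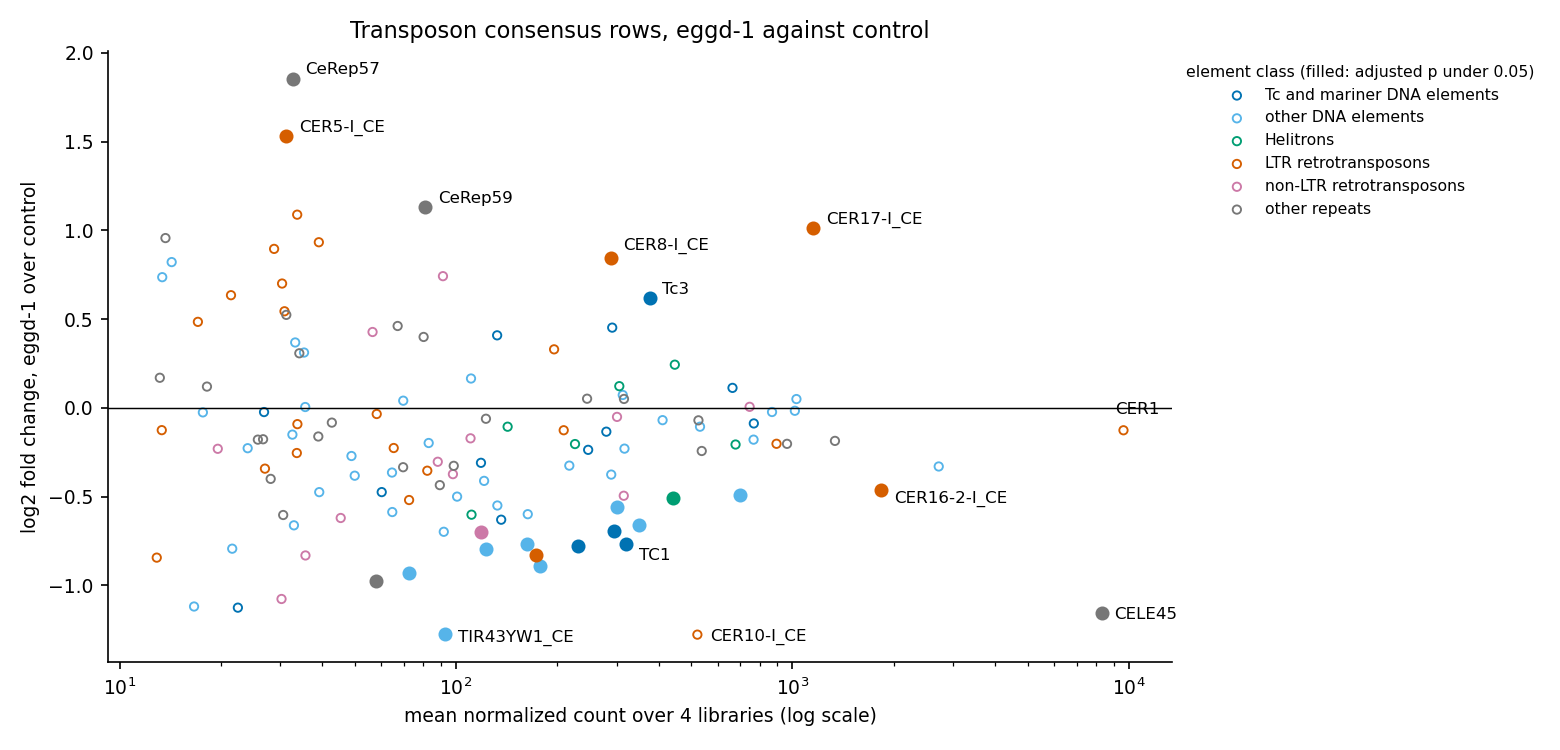
Log2 fold change (eggd-1 over control) of the 131 transposon rows averaging 10 or more normalized counts, against that average on a log axis. Colours give the element class and filled points the 6 higher and 17 lower rows. CELE45 and CER1 lie far to the right of the other rows, and all points lie between -1.28 and 1.85.

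The calls were sensitive to single libraries. All 23 kept their direction in each of 13 alternative settings, and 2 of them, CELE45 and CER17-I_CE, passed the threshold in every one. Of the 23 calls, 7 were kept without control replicate 1, 16 without control replicate 2, 5 without eggd-1 replicate 1 and 4 without eggd-1 replicate 2, in fits where 1 group had a single library that is assumed to vary like the others. The other 21 lost the call in at least 1 of these 4 fits. All rows counted, these fits gave 4 higher and 4 lower, 3 and 14, 1 and 4, and 2 and 2 in that order.

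CELE45 was the row with the smallest adjusted p. It had 4755 and 5549 normalized counts in eggd-1, against 11431 and 11537 in the control. The groups were widely separated and the control libraries nearly equal. Its log2 fold change of -1.16 (SE 0.13) had a DESeq2 adjusted p of 7.33e-18, and over all alternatives the adjusted p was at most 2.02e-05. No other CELE repeat was called. The family has 14 rows, of which 13 were tested and 1 was called, and its median log2 fold change was -0.29. CELE14B, the second most abundant of them, had 880.5 and 910.03 normalized counts in eggd-1 and 1142 and 921.9 in the control, groups that did not overlap but differed by only -0.20 (SE 0.16, DESeq2 adjusted p = 0.328).

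Called LTR retrotransposons lay on both sides. The class holds 42 rows, of which 33 were tested, 3 were higher and 2 were lower, with a median log2 fold change of -0.11 (spread 0.147). These calls were 9.09% and 6.06% of its tested rows, below the 18.6% and 20.4% of all rows. At an unadjusted p under 0.05, 4 rows of the class were higher and 2 lower, and edgeR called 7 higher and 3 lower. Rows marked I stand for the internal part between the repeats, which encodes the capsid protein and reverse transcriptase, and rows marked LTR for the repeats. The largest increase among rows with a mean of at least 100 was CER17-I_CE, the internal row of Cer17, with 1611 and 1479 normalized counts in eggd-1 and 711.6 and 816.1 in the control. The eggd-1 libraries were both about 2-fold above the control libraries (log2 fold change 1.01, SE 0.15, DESeq2 adjusted p = 3.16e-10, at most 0.00257 over the alternatives).

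The internal row of Cer8 had 385.5 and 355.9 normalized counts in eggd-1, against 196.4 and 215.8 in the control (CER8-I_CE, log2 fold change 0.85, SE 0.21, DESeq2 adjusted p = 0.000264, and 0.0876 without eggd-1 replicate 1). That of Cer5 was far less abundant, at 55.2 and 37.9 in eggd-1 and 14.2 and 17.9 in the control (CER5-I_CE, log2 fold change 1.53, SE 0.55, DESeq2 adjusted p = 0.0171). Neither pair of groups overlapped. CER5-I_CE rested on 50 and 31 counts in eggd-1 and 14 and 25 in the control, and leaving out any 1 library raised its adjusted p to between 0.103 and 0.366.

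On the other side were 2 internal rows. CER16-2-I_CE, the fourth most abundant row, had 1481 and 1605 normalized counts in eggd-1 and 1972 and 2287 in the control (log2 fold change -0.47, SE 0.14, DESeq2 adjusted p = 0.00405). CER7-I_CE had 138 and 111 in eggd-1, against 223 and 221 in the control (log2 fold change -0.83, SE 0.25, DESeq2 adjusted p = 0.00446). In both the groups were apart. The most abundant row of all, CER1, had 8570 and 9851 normalized counts in eggd-1 and 10350 and 9764 in the control, so that the groups overlapped. Its log2 fold change was -0.13 with a 95% interval of -0.37 to 0.12 (DESeq2 adjusted p = 0.453). Its repeats, LTRCER1, had 803 and 865 in eggd-1 and 940 and 978 in the control (log2 fold change -0.20, interval -0.50 to 0.09, DESeq2 adjusted p = 0.291).

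CER10-I_CE was singled out after its values had been seen because 1 library decides it. It had 364 and 246 normalized counts in eggd-1, against 390 and 1088 in the control. Control replicate 2 stood alone, and the other 3 libraries lay between 246 and 390. Its log2 fold change of -1.28 (SE 0.73) had a DESeq2 adjusted p of 0.158, beside 7.99e-06 by edgeR and 0.000482 by limma voom. Without control replicate 2 it was -0.37 (adjusted p = 0.362) and without control replicate 1 it was -1.84 (adjusted p = 4.27e-12).

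Whether the repeats followed the internal part was compared within elements. The rows name 22 Cer elements, 18 of which have both an internal or whole-element row and an LTR row, and in 7 both reached a mean of 10. The log2 fold changes had the same sign in 5 of these 7. They were 0.85 and 0.93 for the internal and LTR rows of Cer8, and -0.83 and -0.84 for those of Cer7. Cer17 was one of the 2 elements that differed. Its LTR row had a mean of only 33.6 normalized counts and a log2 fold change of -0.25 (SE 0.55), beside 1.01 for the internal part. The difference between rows of 1 element was not tested, and no LTR row passed the DESeq2 test on its own. By edgeR, CER8-LTR_CE passed (adjusted p = 0.00621), as did CER12-1-LTR_CE (adjusted p = 0.0265).

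**Figure D3:**
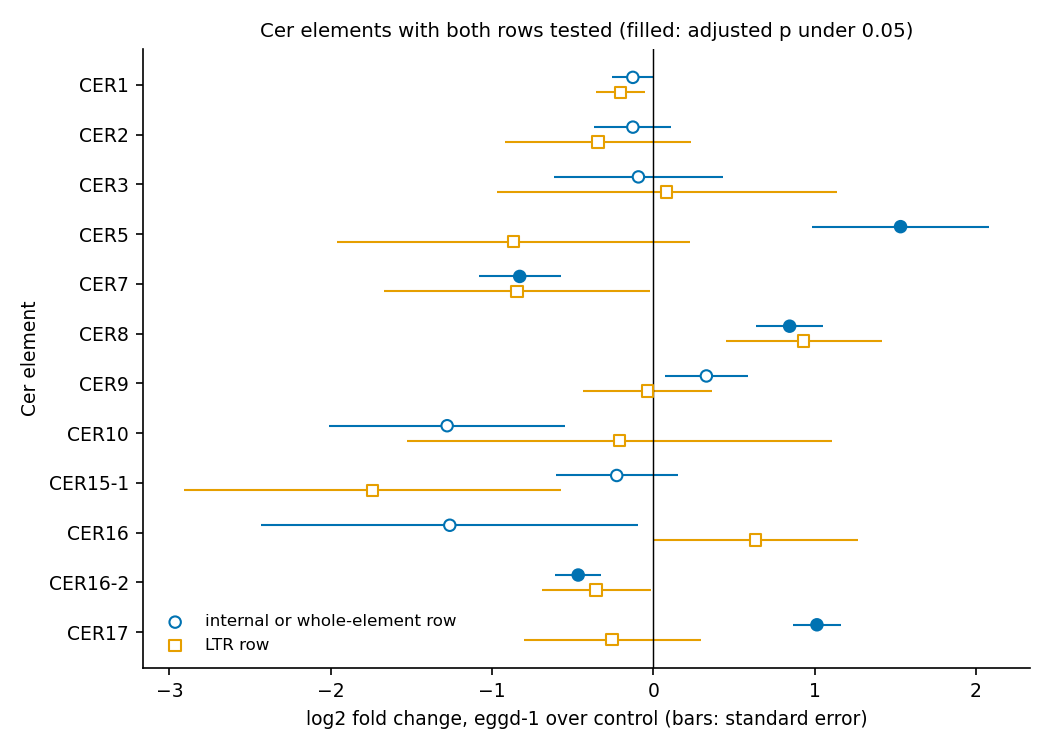
Log2 fold change (eggd-1 over control) with its standard error for the 12 Cer elements in which both rows received an adjusted p, circles for the internal or whole-element row and squares for the LTR row. The 5 filled circles are Cer5, Cer8 and Cer17 to the right of zero and Cer7 and Cer16-2 to the left, and no square is filled.

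The Tc and mariner class holds 16 rows, 15 of them tested, with 1 higher and 3 lower and a median log2 fold change of -0.24 (spread 0.166). Its calls were 6.67% and 20.0% of its tested rows, against 18.6% and 20.4% of all rows. Tc1, a founding member of the Tc1/mariner superfamily, had 251 and 224 normalized counts in eggd-1, against 422 and 386 in the control. The groups did not overlap, and the log2 fold change of TC1 was -0.77 (SE 0.20, DESeq2 adjusted p = 0.000786, and 0.101 without eggd-1 replicate 2). TC4 had 209 and 242 in eggd-1 and 399.8 and 330.2 in the control (log2 fold change -0.69, SE 0.22, DESeq2 adjusted p = 0.00484). TC5 had 161 and 179 in eggd-1 and 300 and 284 in the control (log2 fold change -0.78, SE 0.22, DESeq2 adjusted p = 0.0022). TC1, TC4 and TC5 were thus lower in both mutant libraries than in either control library.

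Tc3 ran the other way. It had 429 and 483 normalized counts in eggd-1, against 305 and 289 in the control, with no overlap (log2 fold change 0.62, SE 0.19, DESeq2 adjusted p = 0.00431). Without control replicate 2 the adjusted p of Tc3 was 0.0727, and it was 0.0895 and 0.214 without eggd-1 replicate 1 and replicate 2. TC2 was scarce, with 8.84 and 19.6 normalized counts in eggd-1 and 29.4 and 32.2 in the control (log2 fold change -1.13, SE 0.66, DESeq2 adjusted p = 0.166). TC6 had 127 and 175 in eggd-1 and 130 and 98.6 in the control, which overlap (log2 fold change 0.41, SE 0.30, DESeq2 adjusted p = 0.283).

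Related consensus rows of 2 Tc families were also read, chosen after their values were seen, and the difference between such rows was not tested. TC1A had 632 and 856 normalized counts in eggd-1, against 998 and 585 in the control. The groups overlapped, and the libraries of each group lay further apart than the group means. Its log2 fold change was -0.09 (SE 0.44), and leaving out control replicate 1 gave 0.34, while leaving out control replicate 2 gave -0.44. TC5A had 286 and 387 in eggd-1 and 270 and 222 in the control (log2 fold change 0.45, SE 0.23, DESeq2 adjusted p = 0.1). How reads were divided between such similar consensus sequences is not given in the sources used here, so the values of single rows in these families are uncertain. Fractional values, which mark divided reads, occurred in 62 of the 181 rows.

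The other DNA elements formed the largest class, with 57 rows, 48 tested, 0 higher and 8 lower. That is 0% and 16.7% of its tested rows, both below the 18.6% and 20.4% of all rows. At an unadjusted p under 0.05, 0 rows of the class were higher and 12 lower, and edgeR called 0 higher and 13 lower. The median log2 fold change was -0.33 (spread 0.164), and the summed normalized counts were 10847 ± 498 in eggd-1 and 13008 ± 1594 in the control (SD, n = 2 each). Control replicate 1 was above control replicate 2 in 37 of the 43 rows with a mean of at least 10, by a median of 0.26. The lower rows came from 5 families. All 3 rows of NDNAX, nonautonomous elements that carry no transposase of their own, were lower. NDNAX3_CE had 563 and 597 normalized counts in eggd-1, against 909.99 and 726.1 in the control (log2 fold change -0.49, SE 0.17, DESeq2 adjusted p = 0.0138). NDNAX1_CE had 257 and 228 in eggd-1 and 389.7 and 327 in the control (log2 fold change -0.56, SE 0.21, DESeq2 adjusted p = 0.0238), and NDNAX2_CE had 124 and 116 in eggd-1 and 242 and 169 in the control (log2 fold change -0.77, SE 0.28, DESeq2 adjusted p = 0.0171). None of the 3 groups of values overlapped.

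CEMUDR2, a relative of the plant MuDR element, had 265 and 275 normalized counts in eggd-1, against 462 and 395 in the control (log2 fold change -0.66, SE 0.20, DESeq2 adjusted p = 0.0034). Its sister row CEMUDR1 had 1008 and 1014 in eggd-1 and 1015 and 1030 in the control, a log2 fold change of -0.02 with a 95% interval of -0.30 to 0.26. The 2 rows of this family thus gave a call and a value near 0, and their difference was not tested.

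The inverted-repeat row TIR43YW1_CE had 60.8 and 47.7 normalized counts in eggd-1 and 139 and 124 in the control (log2 fold change -1.27, SE 0.33, DESeq2 adjusted p = 0.000754). No called row had a larger fall. TIR23T5A_CE had 113 and 137 in eggd-1, against 257 and 206 in the control (log2 fold change -0.89, SE 0.26, DESeq2 adjusted p = 0.00266). Both rows were lower in each eggd-1 library than in either control library. PALTTTAAA3, a palindromic repeat, had 78.4 and 100.3 in eggd-1 and 183 and 128 in the control (log2 fold change -0.80, SE 0.31, DESeq2 adjusted p = 0.0297). HAT4_CE, of the hAT transposase group, had 66.3 and 33.03 in eggd-1 and 96.2 and 94.3 in the control (log2 fold change -0.93, SE 0.40, DESeq2 adjusted p = 0.0485).

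Other abundant or well-known rows of this class gave no call. Chapaev-1_CE, the third most abundant row, had 2302 and 2517 normalized counts in eggd-1, against 3380 and 2684 in the control. The groups did not overlap (log2 fold change -0.33, interval -0.62 to -0.04, DESeq2 adjusted p = 0.0611), and the adjusted p was 0.001 without control replicate 2, 0.359 without control replicate 1, and 0.458 and 0.239 without eggd-1 replicate 1 and replicate 2. TURMOIL2 had 118 and 142 in eggd-1 and 196 and 197 in the control (log2 fold change -0.60, SE 0.26, DESeq2 adjusted p = 0.0505), just short of the threshold. TURMOIL1 had 663 and 774 in eggd-1 and 866 and 762 in the control (log2 fold change -0.18, interval -0.50 to 0.14). MIRAGE1 had 848 and 877 in eggd-1 and 843 and 909.7 in the control (log2 fold change -0.02, interval -0.32 to 0.27). PAL5A_CE, the most abundant palindromic row, had 988 and 1101 in eggd-1 and 1216 and 806 in the control (log2 fold change 0.05, interval -0.32 to 0.42). The groups of these last 3 rows overlapped.

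**Figure D4:**
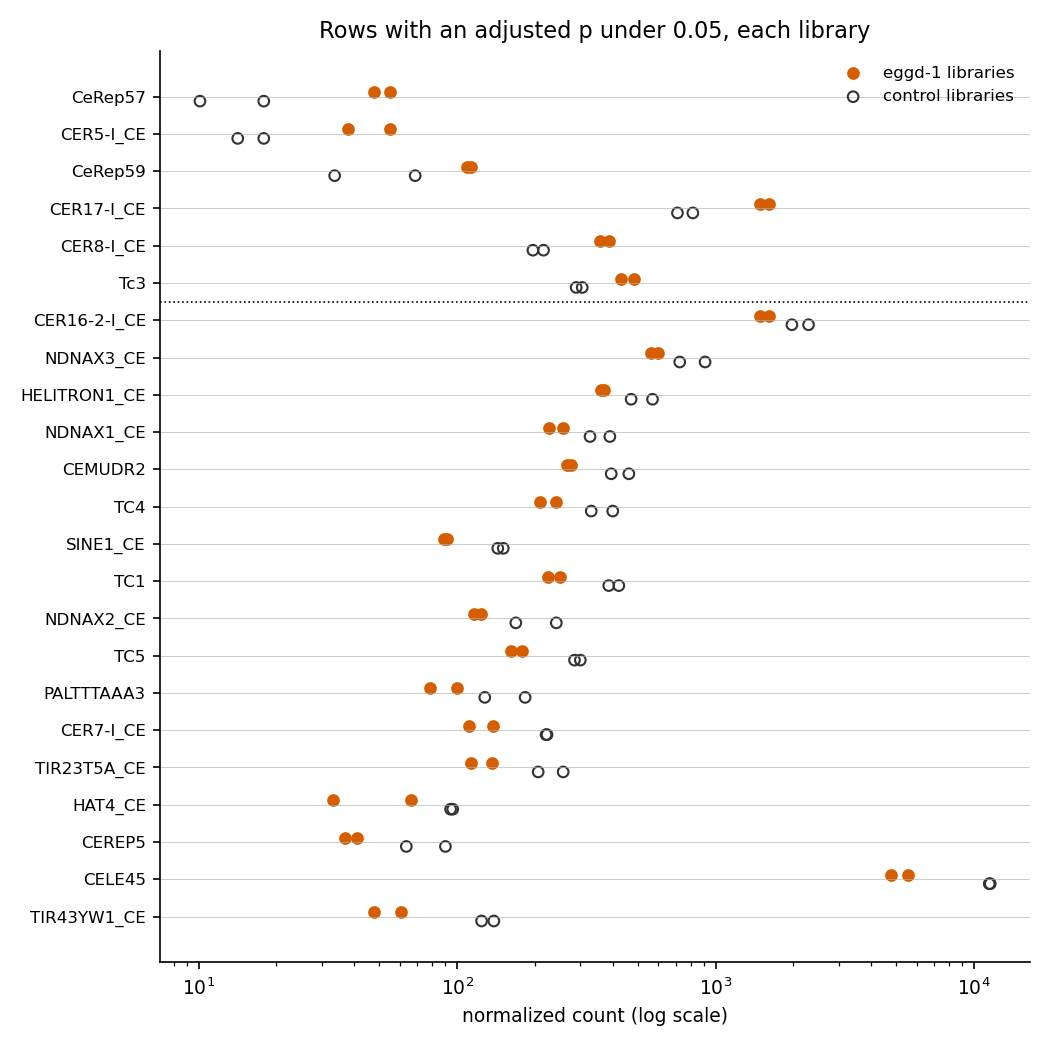
Normalized counts on a log axis in each library for the 23 rows with a DESeq2 adjusted p under 0.05, ordered by log2 fold change. Filled circles are the 2 eggd-1 libraries and open circles the 2 control libraries. The 6 rows above the dotted line were higher in eggd-1 and the 17 below it lower, and in every one the groups do not overlap, which the test nearly requires.

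Helitrons numbered 7 rows, all tested, of which 0 were higher (also at an unadjusted p under 0.05 and by edgeR) and 1 was lower, with a median log2 fold change of -0.20 (spread 0.0626) and a range of -0.60 to 0.24. The calls were 0% and 14.3% of the class, against 18.6% and 20.4% of all rows. HELITRON1_CE had 369 and 361 normalized counts in eggd-1 and 569.9 and 471 in the control (log2 fold change -0.51, SE 0.19, DESeq2 adjusted p = 0.0198). Its groups were apart, and those of 2 other Helitron rows overlapped.

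Non-LTR retrotransposons gave 0 higher and 1 lower call among 13 tested of 14 rows, with a median log2 fold change of -0.30 (spread 0.0300). At an unadjusted p under 0.05 and by edgeR, 1 of these rows was higher. The DESeq2 calls were 0% and 7.69% of the tested rows of the class, below the 18.6% and 20.4% of all rows. SINE1_CE had 91.7 and 89.3 normalized counts in eggd-1, against 151 and 144 in the control, and the libraries of each group were close together (log2 fold change -0.70, SE 0.29, DESeq2 adjusted p = 0.0413). RTE-1, an autonomous LINE-like element, had 753 and 741 in eggd-1 and 749 and 740.4 in the control, so that all 4 libraries lay close together (log2 fold change 0.01, interval -0.30 to 0.31). NeSL-1, which inserts into spliced leader genes, had 245 and 279 in eggd-1 and 326 and 411 in the control, without overlap (log2 fold change -0.50, SE 0.21, DESeq2 adjusted p = 0.0504). Vingi-2_CE, chosen after its values were seen, was the opposite case, with 109 and 120 in eggd-1 and 63.8 and 72.9 in the control (log2 fold change 0.74, SE 0.32, DESeq2 adjusted p = 0.0552). Of the 9 LINE2 rows, 8 were tested and none was called by DESeq2 (median -0.34), with 0 at an unadjusted p under 0.05 and 2 lower by edgeR.

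The remaining repeats, CELE45 and its family included, numbered 45 rows, of which 33 were tested, 2 were higher and 2 were lower, with a median log2 fold change of -0.08 (spread 0.0945). Their summed normalized counts were 9941 ± 453 in eggd-1 and 16671 ± 421 in the control (SD, n = 2 each), a difference carried largely by CELE45. Calls in each direction were 6.06% of the tested rows of the class, below the 18.6% and 20.4% of all rows. Both higher rows were CeRep repeats of low level. CeRep57 had 55.2 and 47.7 normalized counts in eggd-1, against 10.1 and 17.9 in the control (log2 fold change 1.85, SE 0.55, DESeq2 adjusted p = 0.00316). No called row had a larger rise. CeRep59 had 113 and 109 in eggd-1 and 68.8 and 33.6 in the control (log2 fold change 1.13, SE 0.39, DESeq2 adjusted p = 0.0115). CEREP5 fell to 40.9 and 36.7 in eggd-1, against 90.1 and 63.6 in the control (log2 fold change -0.98, SE 0.42, DESeq2 adjusted p = 0.0478). CEREP1A, the abundant row of the family, had 1273 and 1229 in eggd-1 and 1461 and 1388 in the control, apart but close (log2 fold change -0.19, interval -0.46 to 0.08).

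Genes of small RNA and chromatin silencing pathways, here called silencing genes, were followed in a list of 64, of which 62 were matched and tested. The list is not limited to genes that act on transposons. For ALG-3 and ALG-4, which it includes, the paper describes 26G RNAs against male transcripts. By DESeq2, 11 were higher and 16 were lower in eggd-1, or 17.7% and 25.8%. Of the 62 genes, 61 had a mean of at least 100 normalized counts, a level at which 18.9% of all rows were higher and 31.6% lower. The counts of silencing genes were 7 and 12 without control replicate 1, 5 and 5 without eggd-1 replicate 1, and 3 and 6 without eggd-1 replicate 2. The piRNA list was mainly lower, with 9 of 16 lower, 2 higher and a median log2 fold change of -0.46. The gene erh-2, a subunit of the complex that processes piRNA precursors, had 519 and 505 normalized counts in eggd-1 and 1038 and 1015 in the control (log2 fold change -1.002, SE 0.15, DESeq2 adjusted p = 2.1e-09). Its partners pid-1, tost-1, tofu-6 and pid-3 were also lower, with log2 fold changes of -0.82, -0.59, -0.62 and -0.43, as were tofu-1, tofu-2, tofu-5 and tofu-7 (-0.71, -0.49, -0.90 and -0.56). The piRNA Argonaute prg-1 itself was higher, with 11709 and 12955 normalized counts in eggd-1 and 5889 and 7173 in the control (log2 fold change 0.92, SE 0.14, DESeq2 adjusted p = 4.75e-10), as was the transcription factor snpc-4 (0.45).

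Of 18 Mutator and RNA-dependent RNA polymerase genes, 3 were higher and 5 lower (median -0.06). Among all rows with a mean of at least 100, 18.9% were higher and 31.6% lower. The higher ones were the exonuclease gene mut-7 (0.37), simr-1 (0.47) and the helicase gene znfx-1 (0.48). The lower ones were mut-2, which encodes the enzyme that adds poly(UG) tails (-0.41), the helicase genes mut-14 and smut-1 (-0.63 and -0.50) and the nuclease genes rde-8 and nyn-1 (-0.61 and -0.44). The scaffold gene mut-16 had 4809 and 5217 normalized counts in eggd-1 and 3587 and 4468 in the control (log2 fold change 0.32, SE 0.14, DESeq2 adjusted p = 0.0629).

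Of 17 genes of nuclear silencing and heterochromatin, 1 was higher and 1 lower (median -0.10). The nuclear Argonaute gene hrde-1 had 17930 and 20248 normalized counts in eggd-1 and 12103 and 17228 in the control (log2 fold change 0.38, SE 0.16, DESeq2 adjusted p = 0.0467), and the heterochromatin protein gene hpl-2 was lower (-0.47). Of 11 genes for double-stranded RNA and other Argonaute pathways, 5 were higher and 1 lower (median 0.24). The higher ones were rde-1 (0.34), wago-1 (0.35), wago-4 (0.61) and the sperm-line Argonaute genes alg-3 and alg-4 (2.56 and 2.58), and the RNA-dependent RNA polymerase gene rrf-3 was lower (-0.48). Whether these transcripts bear on the transposon rows was not tested.

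Markers of cell types were read beside the shares of all rows, of which 18.6% were higher and 20.4% lower. At a mean of at least 100 those shares were 18.9% and 31.6%. Only the sperm and body muscle lists were called in every tested gene. All 17 tested sperm markers were higher in eggd-1, with summed normalized counts of 6832 and 5421 in eggd-1 and 1907 and 2415 in the control. Oocyte markers were higher in 4 of 9 genes (183254 and 195997 in eggd-1, 125379 and 161835 in the control), and of 8 markers of undifferentiated and meiotic germ cells 2 were higher and 1 lower (34370 and 36941 in eggd-1, 30365 and 34958 in the control). Of 7 tested early embryo markers, 0 were higher (also at an unadjusted p under 0.05 and by edgeR) and 1 was lower, and their sum was 240 and 225 in eggd-1 against 398 and 412 in the control. In the soma, 3 of 4 intestinal, 3 of 3 body muscle and 1 of 4 hypodermal markers were higher. Male soma markers summed to 19.9 and 18.3 in eggd-1 and 17.2 and 12.9 in the control. No marker was at 0 in all libraries. The part of these markers in the values of the transposon rows was not tested.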

How the data were processed

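The authors removed ribosomal RNA from total RNA, made directional paired-end libraries, trimmed reads with TrimGalore, aligned them to WormBase WS279 with STAR and counted genes by strand with featureCounts. They quantified transposon sequences with Salmon and joined both sets of values. The deposited values are therefore expected counts (estimated counts, not normalized). The consensus set, Salmon's options and its strand setting are not given in the sources used here. Nor is it given whether reads counted at genes were also offered to Salmon, so a read may be counted in both sets. The table also holds 7 columns that belong to none of these samples, which were not used.

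Expected counts were rounded, and all rows with at least 1 count were fitted together with DESeq2 1.42.0 (R 4.3.3, Wald test, no shrinkage, Benjamini-Hochberg over all rows, independent filtering at 0.05), the authors' tool. Alternatives used edgeR 4.0.16, limma 3.58.1, other size factors and filters, left-out libraries and a replicate block. The procedure was tested on simulated data. Samples were grouped by title. Totals were 17603513 to 30812591 counts. Element classes were read from row names. The spread of a list is the SD, pooled over both groups, of each library's median log2(normalized count + 0.5) after centring the rows, and 95% intervals of fold changes are from the Wald SE.

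The rows named with values are every row with an adjusted p under 0.05 and a mean normalized count of at least 10, the 10 most abundant rows and a list of elements known by name. Others are marked where they stand. The members, gene lists and markers were chosen with earlier results of these data known. A planned comparison with gene rows whose biotype names a transposon had 0 members. Same-numbered libraries did not deviate together (correlation -0.05 over 15192 rows and 0.03 over the 131 transposon rows), which gives no sign that the numbers pair them. With 2 libraries a group, this cannot exclude a pairing. Libraries of a group differed by more than sampling noise on the transposon rows (chi-square over degrees of freedom 2.38 in eggd-1 and 7.82 in the control) and were counted separately.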

Additional observations from a re-analysis of the deposited data

How the results depend on the processing

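The 6 higher and 17 lower rows became 13 and 29 with edgeR's quasi-likelihood test and 13 and 29 with limma voom on unrounded values. With each library left out in turn they ran from 1 to 4 higher and from 2 to 14 lower, the 4-fold higher count was 0 to 1, and the median log2 fold change of -0.20 ran from -0.32 to -0.14. Size factors taken from the transposon rows alone, which moved the median of all rows by 0.24 on the log2 scale, gave 9 higher and 2 lower rows, 1 row at least 4-fold higher and a median of 0.041. By construction this scaling sets the typical transposon row near 0, so directions given in the report are relative to all rows. Under it the silencing genes went to 20 higher and 4 lower, in place of 11 and 16. The log2 ratio of the transposon share, -0.31, was -0.16 without CELE45 and CER1. With the replicate block, 5 rows were higher and 11 lower. The labels do not say that the numbers pair the libraries, and the correlation of same-numbered libraries does not either. The other settings (library-total, TMM and gene-row size factors, filters) left these counts within 1.5 times and the median between -0.21 and -0.18. None of the 37 rows chosen to be named changed sign past the threshold. The median and the balance of calls did change direction under the size factors from the transposon rows. With 2 libraries a group, rows under about 10 normalized counts gave no call.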
